A study of Mus musculus with 8 samples.

Results

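RNA abundance of 40 genes of cell division was examined in the olfactory mucosa of newborn mice. The knockouts were bred to delete Emx2, a homeodomain transcription factor, in mature olfactory sensory neurons (OSNs). The genes form a list of replication and mitosis genes chosen by name, with earlier results of these data known. Of the 40, 39 had a transcript cluster of their own, the unit at which the array reports a gene. In all, 21789 clusters name exactly 1 gene. Ccnb1, which encodes cyclin B1, had no such cluster and was not analysed here. The 8 mice were of a mixed 129 x C57BL/6J background and were taken at postnatal day 1, and the total RNA of each was hybridised to its own Affymetrix whole-transcript array. The 4 knockouts were OmpCre:Emx2(fl/fl), so that Cre, expressed under Omp (a gene of mature OSNs), could delete both floxed copies of Emx2. The labels call the 4 controls littermates. Controls 1 to 3 were OmpCre:Emx2(fl/+), with Cre and 1 floxed copy, whereas control 4 had no Cre and was Emx2(fl/fl). Every mouse therefore carried at least 1 floxed copy of Emx2. Replicate numbers follow the order of deposit and pair no mice, and p values measure only the spread between these mice.

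Cells divide by copying their DNA in S phase and separating the copies in mitosis. The genes of both steps are transcribed in waves: E2F factors drive replication genes at the transition from G1 to S phase, and a later wave drives mitotic genes in G2 and mitosis. In the olfactory epithelium, globose basal cells are the dividing progenitors from which OSNs form throughout life, whereas OSNs themselves have left the cell cycle. Dividing blood, cartilage, connective tissue and vessel cells of the newborn mucosa also use these genes. Because whole mucosa was measured, a change in the number of dividing cells and a change in RNA per dividing cell cannot be told apart.

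The promoters of 4 members are shown because the mitotic and replication genes are described separately below. These are the 2 mitotic (Cenpf and Kif23) and the 2 replication members (Rrm1 and Mcm3) of smallest p among those with a single promoter entry that overlaps no other gene. Each sequence holds the 250 bases before the transcription start in RefSeq (GRCm38.p6), 5′ to 3′, namely Cenpf at chr1:189688087-189688336 (minus strand), Kif23 at chr9:61946800-61947049 (minus strand), Rrm1 at chr7:102441445-102441694 (plus strand) and Mcm3 at chr1:20820313-20820562 (minus strand). Capitals mark matches on either strand to 3 motifs. The CHR element of mitotic genes was searched as TTTGAA and as the variant TTTAAA, and the CCAAT box by its name. The E2F site was searched as TTCCCGC, as the variant TTGGCGC, as the variant TTCGCGC and as the variant TTGCCGC.
Cenpf: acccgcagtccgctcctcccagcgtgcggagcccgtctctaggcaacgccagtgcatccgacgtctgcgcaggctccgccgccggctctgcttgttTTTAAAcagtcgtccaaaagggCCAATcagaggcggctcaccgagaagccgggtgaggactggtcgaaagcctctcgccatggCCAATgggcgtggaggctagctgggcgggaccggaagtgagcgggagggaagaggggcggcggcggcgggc
Kif23: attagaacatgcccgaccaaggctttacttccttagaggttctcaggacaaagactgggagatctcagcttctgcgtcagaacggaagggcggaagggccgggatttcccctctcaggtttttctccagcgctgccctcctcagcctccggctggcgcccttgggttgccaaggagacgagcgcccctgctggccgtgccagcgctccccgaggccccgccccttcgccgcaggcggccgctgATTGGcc
Rrm1: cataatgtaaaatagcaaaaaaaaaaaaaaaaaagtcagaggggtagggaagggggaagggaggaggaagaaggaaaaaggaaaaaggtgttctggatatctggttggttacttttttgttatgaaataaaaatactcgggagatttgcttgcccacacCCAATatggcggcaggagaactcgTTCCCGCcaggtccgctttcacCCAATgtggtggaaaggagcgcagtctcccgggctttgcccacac
Mcm3: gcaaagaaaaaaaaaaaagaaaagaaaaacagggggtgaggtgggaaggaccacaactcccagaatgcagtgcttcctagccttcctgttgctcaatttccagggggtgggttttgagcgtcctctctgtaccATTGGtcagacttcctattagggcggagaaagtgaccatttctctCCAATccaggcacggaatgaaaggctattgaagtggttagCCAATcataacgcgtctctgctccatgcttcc
The Cenpf promoter held a CHR match that starts 154 bases before the transcription start and 2 CCAAT matches, and that of Kif23 held 1 CCAAT match. Rrm1 had an E2F match 67 bases before the start and 2 CCAAT matches, and Mcm3 had 3 CCAAT matches. Among the 32 members with a promoter entry, a CHR match was found in 10 of 18 mitotic and 3 of 14 replication members, where 25.5% of all 27025 promoters of this length held one. An E2F match was found in 2 of 18 mitotic and 6 of 14 replication members, against 7.97% of all promoters. A CCAAT match was found in 16 of 18 and 8 of 14, against 34.5%. These are matches of letters and not measured binding sites.

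The arrays were alike in scale, with median log2 signals of 8.64 to 8.68. Markers of mature OSNs were present in every mouse, and 22 of them averaged 11.67 to 11.99 on the log2 scale in controls and 11.67 to 11.90 in knockouts. Emx2 itself was lower in all 4 knockouts (10.14 to 10.34) than in any control (10.58 to 10.89). The log2 difference was -0.55 ± 0.08 (SE, limma adjusted p = 0.201), a fold of 0.684, so Emx2 RNA was lowered and not absent. In a reporter strain with OmpCre, the study saw Cre activity in only a part of the cells of the mature OSN layer. One array differed broadly from the rest: along the leading principal component of all clusters (32.5% of the variance) control 2 scored 32.87 and the remaining mice -11.83 to 6.11. It also held the lowest signal of every measured member, so values without control 2 are given beside the results.

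Knockouts were compared with controls to see which RNAs differ when Emx2 is lowered by Cre in mature neurons, here among genes used by dividing cells. All 39 measured members had a higher mean in knockouts than in controls, with log2 differences of 0.03 to 0.43 (folds of 1.02 to 1.34) and a median of 0.197. Over all 21789 clusters the mean was higher in knockouts in 51.4%, and the median difference was 0.0024. Adjusted over all clusters, limma called 0 of the 39 members at 0.05, as it called 0 (0.0%) of all clusters, and the members' adjusted p values ran from 0.910 to 0.962. At an unadjusted limma p under 0.05 there were 3 members, all higher, which are Aurkb, Ccne2 and Nusap1. These are 7.69% of the members, where 2.62% of all clusters were higher, 2.55% lower and 5.17% either way at that level. The methods' t-test put 0 members at an unadjusted p under 0.05 and 0 past adjustment. No single member thus passed the test against the spread between mice.

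**Figure D1:**
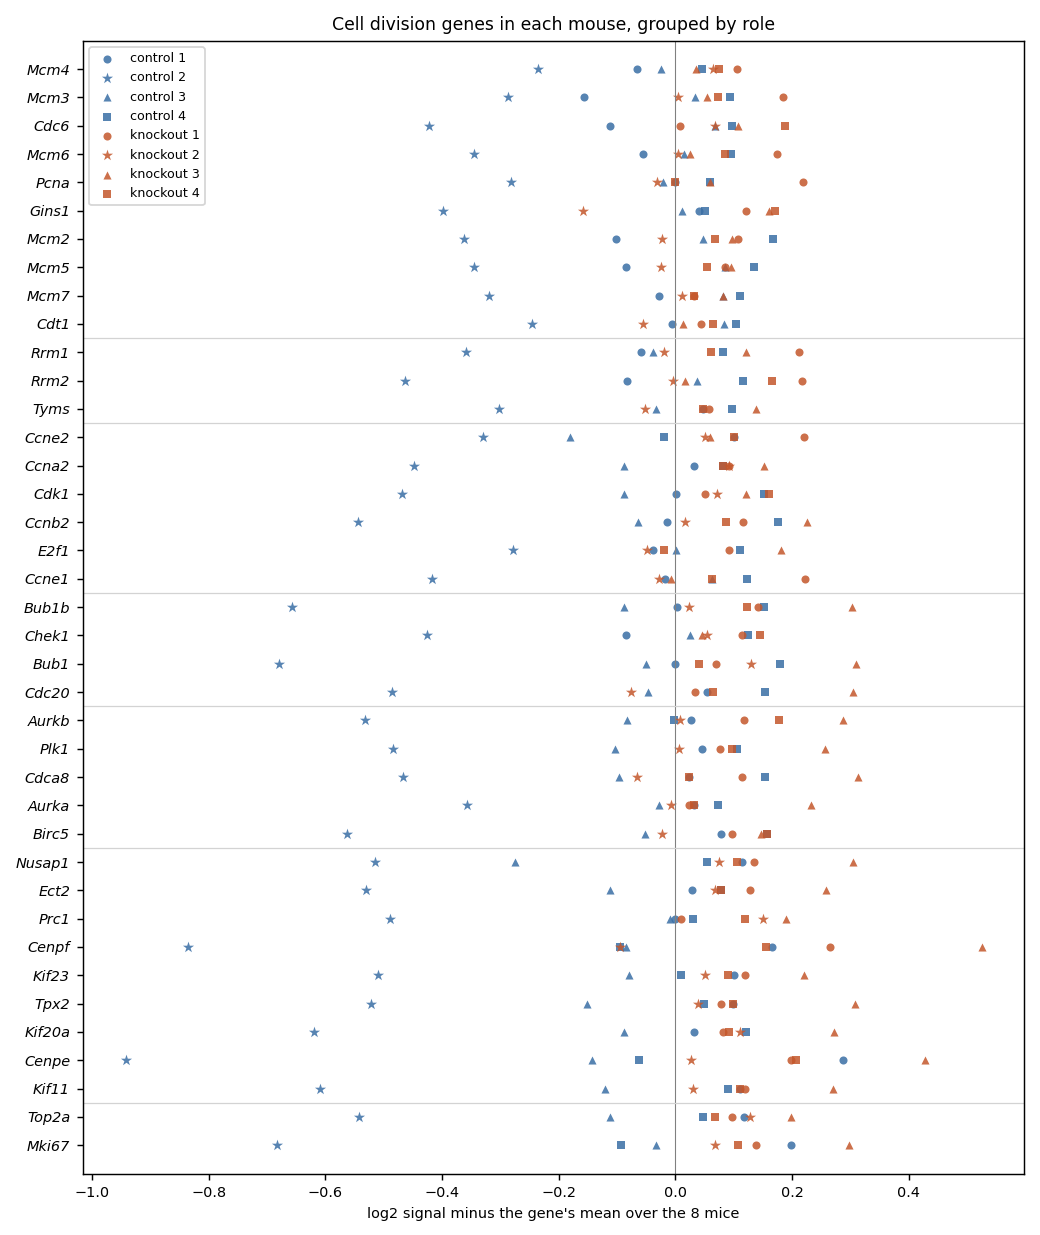
Log2 signal of the 39 members in each of the 8 mice, as the deviation from the gene's own mean over the 8 mice, with genes in rows grouped by role (grey lines) and 1 point per mouse (blue for controls, orange for knockouts). Control 2 (blue stars) is the lowest point in all 39 rows, and knockout 3 (orange triangles) is the highest in 22.

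One mouse set the low end of every gene. Control 2 had the lowest signal of the 8 mice in 39 of 39 members, whereas it was lowest in 18.4% of all clusters. It lay 0.13 to 0.81 below the next lowest mouse on the log2 scale, with a median gap of 0.37. The next lowest mouse was another control in 31 members (control 3 in 20, control 1 in 10 and control 4 in 1) and knockout 2 in 8. With control 2 included, the SD between controls exceeded that between knockouts in all 39 members, at 0.12 to 0.52 among controls and 0.03 to 0.26 among knockouts. The share of all clusters with this order was not computed. For the mean over members given below, the controls' SD was 0.250 with control 2 and 0.063 without it, beside 0.069 in knockouts.

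Averaged over the 39 members, the deviation from each gene's mean was 0.02, -0.47, -0.04 and 0.08 in controls 1 to 4. In knockouts 1 to 4 it was 0.12, 0.02, 0.18 and 0.09. Controls averaged -0.103 ± 0.250 (SD, 4 mice) and knockouts 0.103 ± 0.069 (SD, 4 mice), a difference of 0.205. Outside control 2 the groups overlapped, since control 4 lay above knockout 2. Without control 2 the mean difference was 0.083, the controls averaged 0.020 ± 0.063 (SD, 3 mice), and 37 of 39 members still had a higher mean in knockouts (50.6% of all clusters did). The exceptions were the replication genes Mcm7 (-0.02) and Cdt1 (-0.04). Without control 2, limma called 0 members past adjustment and put 1 member, Aurkb, at an unadjusted p under 0.05 (higher, as were 2.11% of all clusters, with 2.42% lower).

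In 1 member all 4 knockouts lay above all 4 controls, against 1.62% of all clusters, and leaving out control 2 also gave 1 member, against 2.38%. That member was Ccna2, which encodes cyclin A2, the partner of Cdk2 and Cdk1 in S phase and G2. Its log2 signals were 12.13, 11.65, 12.01 and 12.18 in controls 1 to 4 and 12.19, 12.19, 12.25 and 12.18 in knockouts 1 to 4. Control 4 and knockout 4 were equal at 2 decimals, so the groups were barely separate, and the difference was 0.21 ± 0.11 (limma adjusted p = 0.910), or 0.10 ± 0.05 without control 2.

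**Figure D2:**
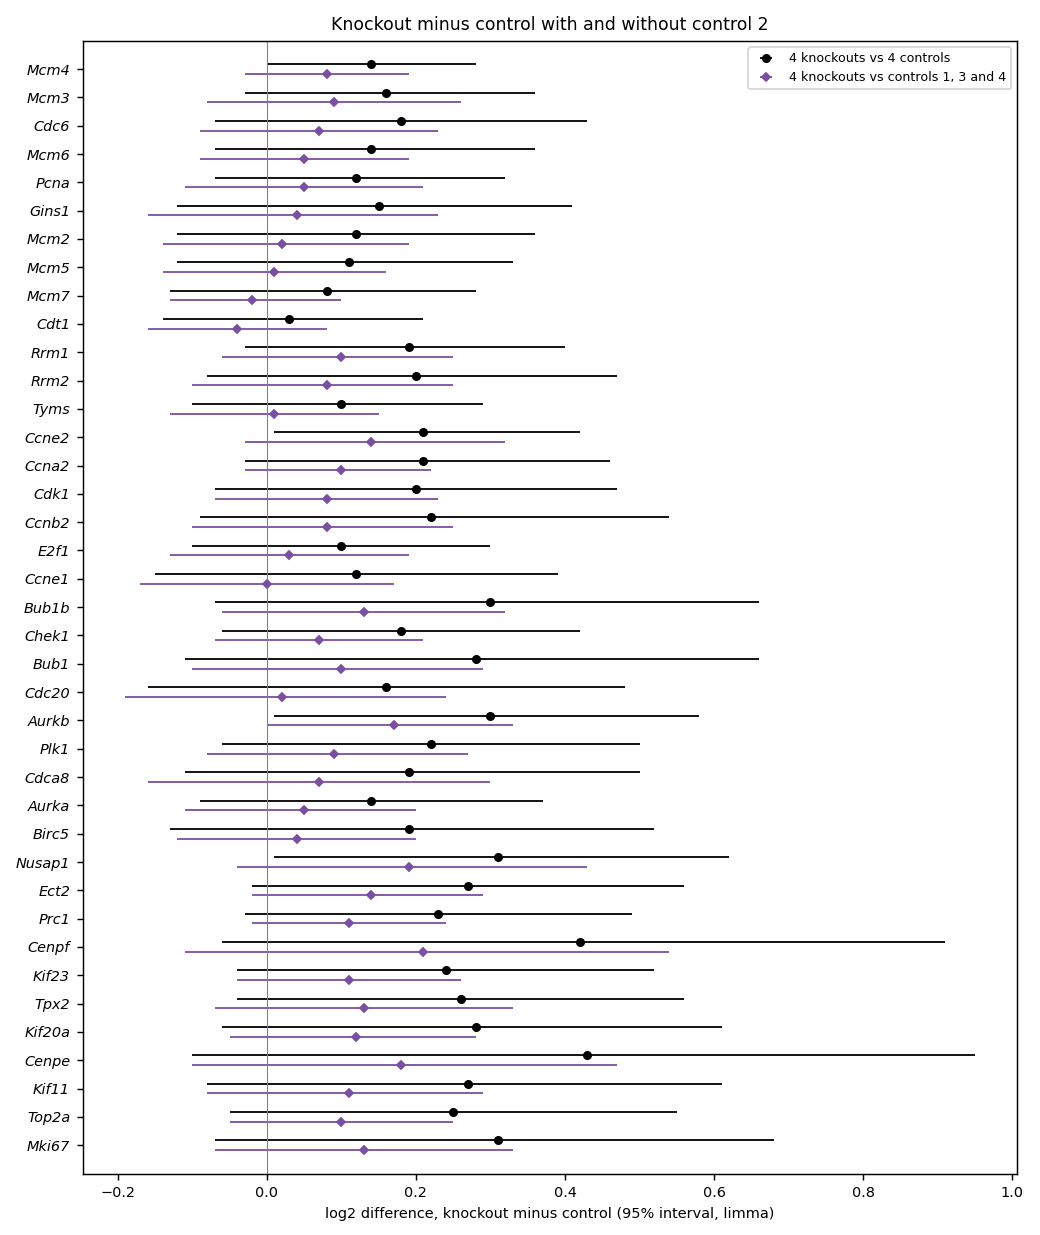
Log2 difference of knockout minus control for each member with its 95% interval from limma, over all 8 mice (black circles) and without control 2 (purple diamonds). All 39 circles lie above 0 and most diamonds lie nearer to 0 than the circle of the same gene, with Mcm7 and Cdt1 below it.

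Replication starts when the helicase of Mcm2 to Mcm7 is loaded on origins by Cdc6 and Cdt1 and is later switched on with the GINS complex, of which Gins1 is a subunit, and Pcna is the clamp that holds polymerases on DNA. All 10 genes of this role had a higher mean in knockouts, with differences of 0.03 to 0.18 and a median of 0.13, and 0 had an unadjusted limma p under 0.05. Mcm4 had the smallest p of the role. Its log2 signals were 10.34, 10.17, 10.38 and 10.45 in controls 1 to 4 and 10.51, 10.47, 10.44 and 10.48 in knockouts 1 to 4. Knockout 3 lay below control 4, and the difference was 0.14 ± 0.06 (fold 1.10, limma adjusted p = 0.910), or 0.08 ± 0.05 without control 2. For Mcm3 the controls gave 9.37, 9.24, 9.56 and 9.62 and the knockouts 9.71, 9.53, 9.58 and 9.60, so that controls 3 and 4 lay among the knockouts (0.16 ± 0.09, fold 1.12, and 0.09 ± 0.07 without control 2).

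Pcna gave 12.22, 11.94, 12.20 and 12.28 in controls and 12.44, 12.19, 12.28 and 12.22 in knockouts (0.12 ± 0.09, and 0.05 ± 0.07 without control 2). Control 2 alone was low and knockout 1 alone was high. A second cluster also named Pcna gave nearly the same signals (11.93 to 12.28 in controls), and whether the pair reads 1 transcript or also a near-identical copy is uncertain. Mcm2, Mcm5, Mcm7 and Cdt1 were highest in a control mouse, control 4, and were the only members highest in any control. Without control 2, 8 of the 10 genes kept a higher mean in knockouts, at a median difference of 0.044.

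Deoxynucleotides for replication come from ribonucleotide reductase, whose subunits are Rrm1 and Rrm2, and from thymidylate synthase, Tyms. All 3 genes had a higher mean in knockouts, at 0.10 to 0.20. Rrm1 stood at 11.76, 11.46, 11.78 and 11.90 in controls 1 to 4 and 12.03, 11.80, 11.94 and 11.88 in knockouts 1 to 4. Knockouts 2 and 4 lay below control 4, and the difference was 0.19 ± 0.09 (fold 1.14, limma adjusted p = 0.910), or 0.10 ± 0.07 without control 2. Tyms differed by 0.01 ± 0.06 when control 2 was left out.

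Cyclins and their kinases time these steps. Cyclin E (Ccne1, Ccne2) acts at entry into S phase, cyclin A2 in S phase and G2, and cyclin B2 (Ccnb2) with Cdk1 in mitosis, while E2f1 activates replication genes. The 6 measured genes of this role had differences of 0.10 to 0.22. Ccne2 gave 9.44, 9.01, 9.16 and 9.32 in controls 1 to 4 and 9.56, 9.39, 9.40 and 9.44 in knockouts 1 to 4. Control 1 lay among the knockouts and the other controls below them. The difference was 0.21 ± 0.09 (fold 1.16, limma adjusted p = 0.910) and without control 2 it was 0.14 ± 0.08.

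Ccne1, the other cyclin E gene, differed by 0.12 ± 0.12 over all mice and by 0.00 ± 0.07 without control 2. Cdk1, the kinase that drives entry into mitosis, stood at 11.74, 11.27, 11.65 and 11.89 in controls and 11.79, 11.81, 11.86 and 11.90 in knockouts. Control 4 lay among the knockouts (0.20 ± 0.12, fold 1.15, and 0.08 ± 0.07 without control 2). E2f1 differed by 0.10 ± 0.09, and by 0.03 ± 0.07 without control 2.

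Checkpoint genes guard the passage through the cycle. Chek1 halts cells with damaged DNA, Bub1 and Bub1b hold mitosis until chromosomes attach to the spindle, and Cdc20 activates the complex that starts anaphase. The 4 genes differed by 0.16 to 0.30. Bub1b gave 10.28, 9.62, 10.19 and 10.43 in controls 1 to 4 and 10.42, 10.30, 10.58 and 10.40 in knockouts 1 to 4. The difference of 0.30 ± 0.16 (fold 1.23, limma adjusted p = 0.910) became 0.13 ± 0.08 without control 2. Bub1 ranged over 1.00 on the log2 scale, from 9.85 in control 2 to 10.84 in knockout 3, with the other mice between 10.48 and 10.71 (0.28 ± 0.17, and 0.10 ± 0.08 without control 2). Chek1 ranged over 0.56, from 9.65 in control 2 to 10.22 in knockout 4, and differed by 0.18 ± 0.11 (0.07 ± 0.06 without control 2).

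The mitotic kinases are Aurka, Aurkb and Plk1, and Birc5 and Cdca8 join Aurkb in the chromosomal passenger complex at centromeres. Their differences were 0.14 to 0.30. Aurkb had the smallest p of all members. Its log2 signals were 11.06, 10.50, 10.95 and 11.03 in controls 1 to 4 and 11.15, 11.04, 11.32 and 11.21 in knockouts 1 to 4. Knockout 2 lay below control 1 and the other knockouts above all controls. The difference was 0.30 ± 0.12 (fold 1.23, limma adjusted p = 0.910), and 0.17 ± 0.07 without control 2. Plk1 differed by 0.22 ± 0.12 (0.09 ± 0.08 without control 2), and its knockouts (10.85, 10.78, 11.03 and 10.87) overlapped controls 1 and 4 (10.82 and 10.88). Without control 2 the differences of the partners of Aurkb were 0.04 ± 0.07 for Birc5 and 0.07 ± 0.10 for Cdca8.

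Genes of the spindle, kinetochore and cytokinesis had the highest median difference of the 6 roles with 3 or more genes, 0.269 over 9 genes. The 2 genes of chromosome structure, described below, had a median of 0.277. All 9 spindle genes had a higher mean in knockouts with or without control 2 (median 0.129 without it). The same held for every other role except the 10 genes of replication, of which 8 did without control 2. Kif11 pushes spindle poles apart, Tpx2 and Nusap1 build and bundle spindle microtubules, Cenpe and Cenpf act at kinetochores, and Prc1, Kif20a, Kif23 and Ect2 act at the central spindle and in cytokinesis. Nusap1 stood at 11.28, 10.65, 10.89 and 11.22 in controls 1 to 4 and 11.30, 11.24, 11.47 and 11.27 in knockouts 1 to 4. Control 1 lay among the knockouts and the other controls below them. The difference was 0.31 ± 0.13 (fold 1.24, limma adjusted p = 0.910), and 0.19 ± 0.10 without control 2. Ect2 differed by 0.27 ± 0.13 and, without control 2, by 0.14 ± 0.07.

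Cenpe and Cenpf varied most between mice of all members. Cenpe ranged over 1.37 on the log2 scale, at 10.09, 8.86, 9.66 and 9.74 in controls and 10.00, 9.83, 10.23 and 10.01 in knockouts. Cenpf ranged over 1.36, at 10.43, 9.43, 10.18 and 10.17 in controls and 10.53, 10.17, 10.79 and 10.42 in knockouts. In both genes control 2 was the lowest mouse and knockout 3 the highest, and control 1 lay above at least 2 knockouts. Over all mice they had the 2 largest differences among members, 0.43 ± 0.23 and 0.42 ± 0.21, and the 2 widest 95% intervals, -0.10 to 0.95 and -0.06 to 0.91. Without control 2 the differences were 0.18 ± 0.12 for Cenpe and 0.21 ± 0.14 for Cenpf, and Nusap1 (0.19 ± 0.10) then lay above Cenpe.

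Mki67 and Top2a, the usual markers of dividing cells, encode a coat protein of mitotic chromosomes and the topoisomerase that untangles DNA. Mki67 gave 12.18, 11.30, 11.95 and 11.89 in controls and 12.12, 12.05, 12.28 and 12.09 in knockouts (0.31 ± 0.17, fold 1.24, limma adjusted p = 0.910). Control 1 lay above 3 of the knockouts. Top2a gave 11.73, 11.07, 11.50 and 11.66 in controls and 11.71, 11.74, 11.81 and 11.68 in knockouts (0.25 ± 0.13, fold 1.19). Without control 2 the differences were 0.13 ± 0.09 and 0.10 ± 0.06.

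Replication and mitotic members were also set side by side. The 17 members of the G1 to S transition ranged over 0.34 to 0.68 on the log2 scale between mice (median 0.52), and the 22 members of G2 and mitosis over 0.59 to 1.37 (median 0.79). The mean difference was 0.137 for the former and 0.258 for the latter, and 0.046 and 0.111 without control 2. Knockout 3 was the highest mouse in 20 of 22 mitotic and 2 of 17 replication members (E2f1 and Tyms), and it was highest in 14.1% of all clusters. Knockout 1 was the highest in 8 replication and 0 mitotic members, knockout 4 in 5 members (Cdc6, Gins1, Chek1, Cdk1 and Birc5) and control 4 in the 4 named above.

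Mean deviations of replication members were -0.04, -0.34, 0.02 and 0.09 in controls 1 to 4 and 0.13, -0.01, 0.07 and 0.08 in knockouts 1 to 4. Those of mitotic members were 0.07, -0.57, -0.09 and 0.07 and 0.10, 0.04, 0.27 and 0.10. The mice farthest from equal deviations were control 2 (0.23, replication minus mitotic) and knockout 3 (-0.20), at opposite ends. The value was -0.11, 0.11 and 0.02 in controls 1, 3 and 4 and 0.03, -0.05 and -0.02 in knockouts 1, 2 and 4. It was above 0 in 3 of 4 controls and below 0 in 3 of 4 knockouts, and the groups overlapped. The phases of members were assigned from general knowledge and the difference between them was not tested.

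**Figure D3:**
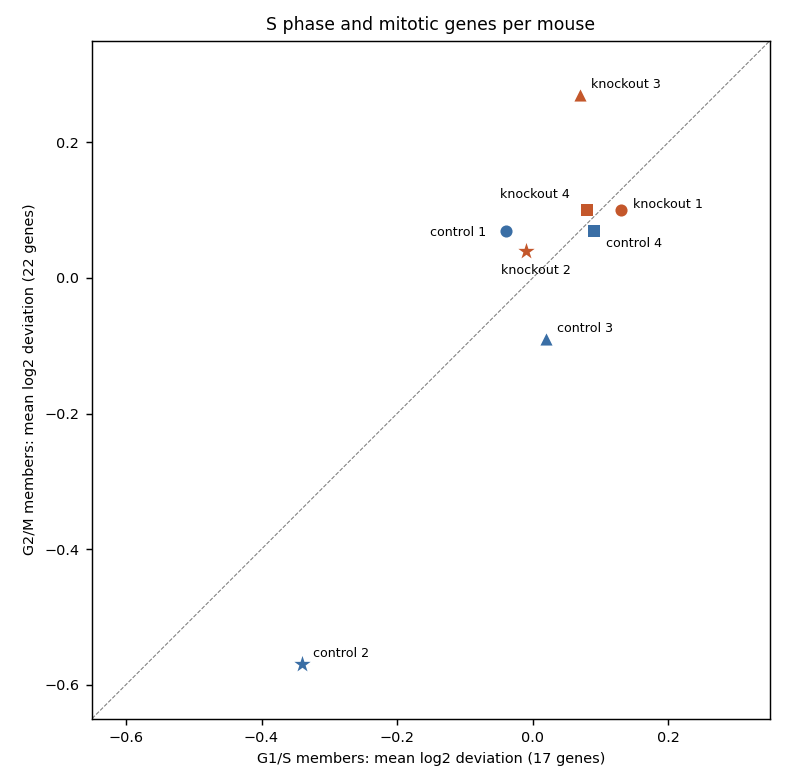
Mean log2 deviation of the 22 G2 and mitosis members (vertical axis) against that of the 17 G1 to S members (horizontal axis), with 1 labelled point per mouse and a dashed line where both are equal. Control 2 lies far to the lower left at -0.34 and -0.57, knockout 3 lies above the line at 0.07 and 0.27, and the other mice lie nearer to the line.

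Other genes of the cycle were listed by name, also with earlier results of these data known. Of 59 measured mitosis genes outside the members, 58 had a higher mean in knockouts (median 0.214, and 54 of 59 with a median of 0.082 without control 2), 0 were called by limma, and 2 (3.39%) were higher at an unadjusted p under 0.05, near the 2.62% of all clusters. These were Sgo2a, which guards cohesion at centromeres (0.36 ± 0.13, fold 1.28, and 0.22 ± 0.07 without control 2), and Smc2, a condensin subunit (0.33 ± 0.12, fold 1.25, and 0.20 ± 0.07 without control 2). The exception was Ube2s, a ubiquitin enzyme of anaphase (-0.08 ± 0.07, which turned to 0.009 with arrays scaled to the mature OSN list). Control 2 was the lowest mouse in 56 of these 59 genes.

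Of 36 measured replication genes outside the members, 30 had a higher mean in knockouts (median 0.077), but 17 of 36 did without control 2 (median -0.004). At an unadjusted p under 0.05 were 2 higher genes (5.56%) and 0 lower, where 2.62% of all clusters were higher and 2.55% lower. The 2 were Prim2, a primase subunit (0.19 ± 0.07, fold 1.14, and 0.13 ± 0.05 without control 2), and Clspn, which links stalled forks to Chek1 (0.24 ± 0.09, fold 1.18, and 0.16 ± 0.06 without control 2). Both were also at an unadjusted limma p under 0.05 without control 2, with adjusted p values of 0.910 over all mice and 1.0 without control 2. Prim2 and Clspn were picked by smallest p, and the fit without control 2 reuses the other mice, so it is not separate support. Orc2, of the origin recognition complex (-0.03 ± 0.06), and Rfc2, of the clamp loader (-0.04 ± 0.06), lay on the lower side. Both of these turned positive with the scaling to the mature OSN list (0.055 and 0.053).

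Transcription factors of the cycle and G1 cyclins had 21 of 22 genes higher (median 0.108), and 19 of 22 without control 2 (median 0.060), with 0 at an unadjusted p under 0.05 over all mice. E2f3, an activating E2F, was at 0.15 ± 0.07 (0.11 ± 0.07 without control 2) and the phosphatase gene Cdc25a at 0.11 ± 0.05 (0.08 ± 0.05 without it). In the other direction E2f4, a repressive E2F of resting cells, was at -0.04 ± 0.05 (0.045 with the mature OSN scaling and 0.021 with Y-linked signal added to the fit). Genes that brake the cycle had 11 of 17 higher and 6 lower (median 0.038, and 0.023 without control 2), and control 2 was lowest in only 3 of them. Cdkn2c, an inhibitor of Cdk4 and Cdk6, was at 0.33 ± 0.15, with control 2 lowest (8.71, others 9.19 to 9.65), and at 0.17 ± 0.09 without it. Cdkn1b, which encodes the inhibitor p27, was at 0.08 ± 0.05. Btg2, an antiproliferative gene of neuronal precursors, was at -0.13 ± 0.05 (fold 0.914, limma adjusted p = 0.910), with log2 signals of 10.64, 10.64, 10.48 and 10.61 in controls and 10.49, 10.43, 10.49 and 10.44 in knockouts, so that control 3 lay among the knockouts. Its relative Btg1 was at -0.09 ± 0.07, and at -0.01 ± 0.04 without control 2.

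**Figure D4:**
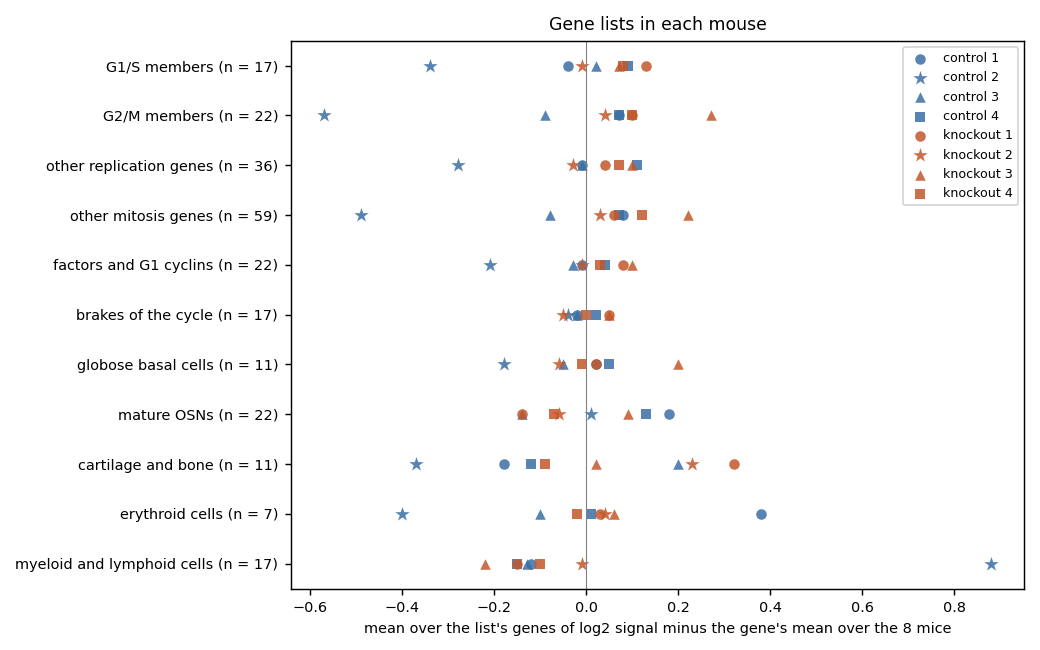
Mean log2 deviation of gene lists in each of the 8 mice (1 point per mouse, blue for controls and orange for knockouts), with the number of measured genes beside each list. Control 2 (blue star) lies at -0.57 for G2 and mitosis members and at 0.88 for myeloid and lymphoid genes, and lies within the other mice for brakes of the cycle and mature OSN genes.

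Markers of other cells also set control 2 apart. Myeloid and lymphoid genes stood 0.88 above their mean in control 2 and between -0.22 and -0.01 in the other mice. Their mean log2 signal was 8.47 to 9.49 in controls and 8.39 to 8.61 in knockouts, and 13 of 17 had a lower mean in knockouts (median -0.209). Without control 2 this turned to 10 higher and 7 lower (median 0.012). Ptprc, the pan-leukocyte marker CD45, was at 9.77 in control 2 and 8.02 to 8.35 in the others. The mean of Bowman gland and secretory genes also stood high in control 2 (0.46, others -0.27 to 0.06), but the genes differed. For example, Muc5b was at 13.24 in control 2 (others 11.42 to 12.37), whereas Bpifb9a lay within the other mice (13.75, others 13.34 to 14.17). The means of erythroid genes (-0.40), cartilage and bone genes (-0.37) and genes of fibroblasts and mesenchyme (-0.24) were low in control 2. It was the lowest mouse in 4 of 7, 5 of 11 and 6 of 9 of these genes, respectively, and in 18.4% of all clusters. In the remaining genes of each list another mouse was lowest. Among the erythroid genes, Alas2 of heme synthesis was at 8.42 in control 2 (others 9.02 to 10.49). Cartilage and bone genes had a higher mean in knockouts in 11 of 11 (median 0.194, and 0.144 without control 2), fibroblast and mesenchyme genes in 8 of 9 (0.187, and 0.153 without it) and endothelial genes in 8 of 8 (0.111, and 0.128 without it). For endothelial genes the lowest mouse was nevertheless knockout 3, at a mean deviation of -0.33. Controls lay at -0.10 to 0.01 and knockouts 1, 2 and 4 at 0.08 to 0.29. The members' own median went from 0.197 to 0.081 when control 2 was left out. The part of these cells in the members' differences was not tested.

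Markers of globose basal cells and neuronal precursors, the local dividing cells, had 10 of 11 genes with a higher mean in knockouts (median 0.054), and 6 of 11 without control 2 (median 0.026). Their mean deviation was -0.18 in control 2 and 0.20 in knockout 3, the mice at the ends of the mitotic members, and between -0.06 and 0.05 in the rest. Neurog1, the proneural factor of late precursors, was at 0.05 ± 0.10 (-0.01 ± 0.09 without control 2), and Kit, a receptor of precursors, at 0.17 ± 0.07 (limma adjusted p = 0.910), or 0.13 ± 0.07 without control 2. For mature OSN genes the mean deviation of control 2 was 0.01, and 16 of 22 had a lower mean in knockouts. At an unadjusted limma p under 0.05, 5 were lower (2.55% of all clusters were) and 1 was higher (2.62%). Without control 2, 16 of 22 were lower, with 3 lower (2.42% of all clusters) and 1 higher (2.11%) at that level.

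Y-linked signal, which marks males, lay unevenly over the groups. It was high (10.53 to 10.72) in controls 2, 3 and 4 and knockout 3, and low (7.05 to 8.09) in control 1 and knockouts 1, 2 and 4. Within the mice of high signal the members' mean difference was 0.329 (39 of 39 higher), or 0.166 (30 of 39) without control 2. Within those of low signal it was 0.054 (27 of 39 higher), with replication members at 0.108 and mitotic members at 0.012. Each of these contrasts has 1 mouse on one side, so they carry no test.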

How the data were processed

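The deposited table holds log2 signals per transcript cluster from 8 arrays, made by the authors' core facility, with Affymetrix Expression Console as the tool listed in the submitters' processing notes (version not listed). The summarisation and normalization algorithm and the genome build are not given in the sources used here. Values ran from 2.65 to 14.9 and array medians differed by at most 0.0391, so they were used as deposited. Of 35557 clusters, 21789 name exactly 1 gene in the platform annotation and were tested, 1621 name several and 12147 none. The RefSeq gene table held 21698 of those tested (GRCm38.p6), matched by Entrez identifier, with 0 symbols changed. Where several clusters name a gene, the one of highest mean stands for it. There is no measure of background in the table, no filter on low values was used, and the number of arrays limits the precision.

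Knockouts were compared with controls by limma 3.58.1 in R 4.3.3 (lmFit, eBayes, two-sided, Benjamini-Hochberg over the 21789 clusters), without covariates, after a check on simulated data. Values after ± are SEs of differences, except those named as SD. Means over lists are descriptions without a test. The members and lists were chosen with earlier results of these data known. Genes were named by a rule: Emx2, Mki67, Top2a, Cdk1 and Pcna, the smallest p values of each role and, in each direction, of each pathway list, the 3 members of widest range, and Neurog1, Kit, Ptprc and Alas2. Other members are named where they complete a role or a small count, and other list genes as examples. Both were chosen after their values were seen. In the other lists, 4 genes (Knl1, Sgo1, Sgo2a and Epb42) were found through an older symbol. Per the study's methods, each litter that gave knockouts also gave controls, but the labels do not say which mice shared a litter. Alternatives were leaving out each mouse, the t-test of the study's methods, scaling to 22 mature OSN genes, quantile normalization, clusters above the median signal, array weights, Y-linked signal as a covariate and averaging a gene's clusters.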

Additional observations from a re-analysis of the deposited data

Results flagged for a closer look

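In 9 of 122 groups of 4 mice, for the members, the other named genes and 3 list means, the highest or lowest mouse stood apart, with a gap to its nearest neighbour that made up a larger share of the group's range than Dixon's critical value for 4 samples. Chance flags about 1 in 20 groups. Control 2 was the low mouse of Prc1 (10.00, others 10.48 to 10.52, share of the range 0.923) and of Gins1 (8.41, others 8.82 to 8.86, 0.906). It was the high mouse of Btg1 (12.38, others 12.05 to 12.08, 0.911) and of Ptprc (9.77, others 8.06 to 8.22, 0.908). Knockout 3 was the high mouse of Ccna2 (12.25, others 12.18 to 12.19, 0.897), Kif20a (10.72, others 10.53 to 10.56, 0.884) and Aurka (10.14, others 9.90 to 9.94, 0.832). Knockout 2 was the low mouse of Gins1 (8.65, others 8.93 to 8.98, 0.843), and control 3 that of Btg2 (10.48, others 10.61 to 10.64, 0.8295).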

How the results depend on the processing

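Under all alternatives run, limma or the methods' t-test called 0 members past adjustment, and every measured member had a higher mean in knockouts except without control 2 (37 of 39) and within mice of low Y-linked signal (27 of 39) or of high signal without control 2 (30 of 39). Among clusters above the median signal 36 of 36 were higher, Birc5, Gins1 and Cdc6 being left out. Leaving out 1 mouse at a time gave a mean difference over members of 0.083 (without control 2) to 0.267 (without control 4), and the scaling to mature OSN genes gave 0.294, beside a median of all clusters of 0.0915. The count of members at an unadjusted p under 0.05 was unstable. From 3 it went to 0 with the t-test, 0 with Y-linked signal added to the fit, 21 with the scaling to mature OSN genes, and 0 to 13 when 1 mouse was left out (10 without control 1, 13 without control 4, 1 without control 2 or knockout 2, and 0 without control 3 or knockouts 1, 3 or 4). The share of all clusters at that level was computed only for the main fit and for the fit without control 2. The other counts thus have no background beside them and are not read as results about the members. The mitotic members' mean difference of 0.258 was 0.012 within the mice of low Y-linked signal. Calls over all clusters went from 0 to 4 with the scaling, 2 among clusters above the median signal, 5 with array weights, and 0 to 1 when 1 mouse was left out (1 without control 3). Of the causes, none was tested.

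Of 553 values of the 37 named genes under the alternatives, 543 kept their direction and 10 turned. Leaving out 1 mouse gave -0.109 to 0.582 for Alas2, -0.006 to 0.127 for Neurog1 and -0.517 to 0.053 for Ptprc, which turned without control 2, and -0.079 to 0.005 for Rfc2, which turned without control 4. With the scaling to mature OSN genes they were Btg1 (0.002), E2f4 (0.045), Orc2 (0.055), Rfc2 (0.053) and Ube2s (0.009), and with the Y-linked covariate E2f4 (0.021). No paired analysis was possible because the labels give no shared replicate numbers and do not say which mice shared a litter. The number of arrays limits the precision, and the 95% intervals of 36 of the 39 members include 0.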
